A study of Mus musculus with 6 samples.

Results

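Imprinted genes are transcribed mainly from the copy inherited from 1 parent. The 40 genes described here are 21 grouped as paternally expressed in the mouse, 18 grouped as maternally expressed, and *Gnas*, whose transcripts differ in their allele of origin. Some of them are imprinted only in certain tissues or transcripts. The 40 genes were chosen by name, with earlier results of these data known. Every probe that the annotation of the array assigns to them was read. Such a probe was found for 21 of the 40 genes (33 probes), among 9046 genes named in the series. Expression was compared between 3 samples of *Prdm14*-deficient mouse embryonic stem (ES) cells, labelled *Prdm14* knockout, and 3 samples of wild-type control ES cells. All 6 had the C57BL/6 genetic background and grew in 2i, a medium with inhibitors of MEK and of glycogen synthase kinase-3, without any further treatment. The *Prdm14*-deficient cells had been derived in the same medium, and *Prdm14* encodes a PR-domain protein of the germline and of pluripotent cells. RNA was read on Illumina Mouse WG-6 bead arrays. Per the labels the samples of a genotype were collected passage after passage, and nothing states that they were independent lines. The p-values therefore cover the variation among these 6 samples and no more.

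Imprints are DNA methylation marks set in egg or sperm at control regions, and after fertilization they are kept through the wave of demethylation that clears most of the genome. Imprinted genes lie in domains in which a control region steers several genes, often through a long non-coding RNA or the insulator protein CTCF. Paternally expressed genes are best known for promoting growth of the embryo and placenta, and many maternally expressed genes for restraining it. ES cells in culture can gain or lose imprints, and the marks are erased in primordial germ cells. The array reads the sum of both alleles. The names paternal and maternal therefore refer to what is known of each gene in the mouse, and the allele in use was not measured in these cells.

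The *Prdm14* transcript itself checked the labels: its brighter probe had log2 signals of 5.03, 5.13 and 4.86 on the *Prdm14*-deficient arrays and 8.49, 8.51 and 8.42 on the wild-type arrays, and it was above background on no *Prdm14*-deficient array (at least 6.62-fold lower, adjusted p = 2.46e-07). All 7 ES cell markers were measured, *Pou5f1* and *Nanog* among them, and 1 was called, *Sox2*, which was higher by 0.54 in *Prdm14*-deficient cells (adjusted p = 0.00421). The probes of a gene differed here: the dimmer *Sox2* probe was not called (0.30, adjusted p = 0.254), and *Pou5f1* was not called at its brightest probe (0.36, adjusted p = 0.028) but was higher at the other (0.60, adjusted p = 0.00321). Of 8 fibroblast markers, 2 were measured. *Thy1* read 6.43, 7.23 and 7.30 in *Prdm14*-deficient cells and 5.09, 4.99 and 4.98, below background, in wild-type cells (at least 2.51-fold higher, adjusted p = 2.13e-04), and *Twist1* read 6.70, 6.81 and 6.06 in *Prdm14*-deficient cells and 6.39, 6.27 and 6.02 in wild-type cells, which overlapped. The collagen genes, *Lum*, *Postn* and *Fbn1* have no named probe. Of 7 primitive endoderm markers, *Dab2* alone was tested (1.1, adjusted p = 0.0586), and of 6 trophectoderm markers, 3 (*Krt8* was lower, -0.89, adjusted p = 8.77e-04). The Y-linked *Eif2s3y* had log2 signals of 8.60, 8.64 and 8.42 in *Prdm14*-deficient cells and 4.82, 5.29 and 5.0, below background, in wild-type cells (at least 7.46-fold higher, adjusted p = 9.55e-07). *Uty*, the other measured gene of 4 Y-linked genes looked up, was detected on all 6 arrays and was not called (0.31, adjusted p = 0.132). It read 5.92, 6.30 and 6.41 in *Prdm14*-deficient cells and 5.80, 6.00 and 5.89 in wild-type cells. The wild-type values lie close to the lowest signals detected on those arrays (5.74, 5.71 and 5.52). *Prdm14*, *Thy1* and *Eif2s3y* passed the detection filter through 1 genotype alone. The part of these marker genes in the results below was not tested. What sets *Eif2s3y* apart between the genotypes moves with every difference below and cannot be told apart from the genotype here. In bulk RNA, fewer cells of a type and less RNA per cell cannot be told apart either.

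Of the 21 imprinted genes with a named probe, 20 were expressed above background, that is, detected at a p under 0.01 on 3 or more of the 6 arrays. They comprised all 9 paternally expressed genes with a probe, 10 of 11 maternally expressed genes and *Gnas*. Of all 9046 named genes, 8343 met the same rule. The annotation names only probes above background on at least 1 array, so most named genes had to pass. Signals below are normalized log2 signals, which can be compared between arrays but not between probes. A gene was called changed when its brightest tested probe had an adjusted p under 0.01 in limma, with the adjustment over all 14436 tested probes. By this rule 6 of the 20 genes (30%) were called, 5 higher and 1 lower in *Prdm14*-deficient cells, against 15.1% of all 8343 genes tested (6.69% called higher and 8.4% called lower). Among paternally expressed genes, *Ndn*, *Peg10* and *Rtl1* were higher and *Peg3* was lower, 4 of 9 (44.4%). Among maternally expressed genes, *Ppp1r9a* was higher, 1 of 10 (10%), and limma called 0 lower. At an unadjusted p under 0.05 in limma, 3 of the 10 were higher and 3 lower, against 1717 and 1604 of all 8343 genes. *Gnas* was higher. Of the 20 genes 5 were called with a difference over 1 in size on the log2 scale, against 6.17% of all genes tested. Counted by probe, 9 of 29 tested probes (31%) were called, 7 higher and 2 lower, against 13.8% of all 14436 probes. The dimmer *Peg3* probe among these 9 passed the detection filter through the wild-type arrays alone, whereas the brightest probe of each of the 20 genes was above background on at least 1 array of each genotype. *Rtl1* was above background on 3 *Prdm14*-deficient arrays and 1 wild-type array, and *Peg10* on 3 and 2. Both met the rule through the *Prdm14*-deficient arrays, where they were higher, so their calls are no further support for these shares. The same holds for the dimmer *Ube3a* probe. With detection required on all 6 arrays, 4 of 18 genes were called, against 13.5% of all genes tested. Over the 9 paternally expressed genes, 8 differences were positive and 1 was negative, with a median of 0.35. Over the 10 maternally expressed genes, 5 were positive and 5 negative, with a median of -0.06, and over all genes tested the median was 0.02. The size of the difference, whichever its sign, had a median of 0.36 over the 20 imprinted genes and of 0.21 over all genes. For 12 of the 20 genes the arrays of the genotypes did not overlap, a property shared by 45% of all genes. Because the genes were chosen with earlier results of these data known, the shares set against all genes are descriptions. Whether the paternally and the maternally expressed genes differ in these respects was not tested.

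**Figure D1:**
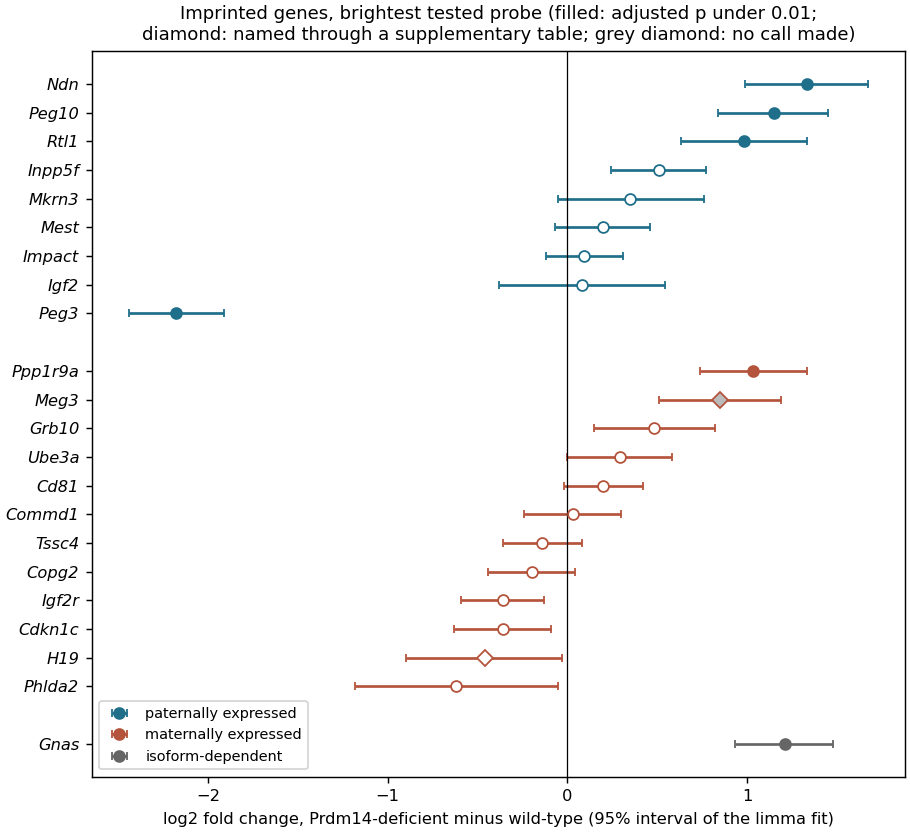
Difference in log2 signal, *Prdm14*-deficient minus wild-type, on the x axis for each measured imprinted gene (1 row each, brightest tested probe), with the 95% interval of the limma fit as the bar. Colours give the allele expressed in the mouse, filled circles an adjusted p under 0.01 and diamonds the genes named through a supplementary table (*Meg3* in grey, for which no call was made); *Peg3* stands alone at -2.18, while the 5 filled circles on the right lie between 0.98 and 1.33.

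The largest difference among the imprinted genes was that of *Peg3*, a paternally expressed gene of chromosome 7 that encodes a zinc finger protein with roles in growth and maternal behaviour. Its brightest probe had log2 signals of 6.92, 6.73 and 6.99 in *Prdm14*-deficient cells and 8.95, 8.99 and 9.23 in wild-type cells. The highest *Prdm14*-deficient array thus lay well below the lowest wild-type array. The means were 6.88 ± 0.13 in *Prdm14*-deficient cells and 9.06 ± 0.15 in wild-type cells (SD, n = 3 each), a fold change of -2.18 on the log2 scale (SE 0.12, 95% interval -2.44 to -1.91, adjusted p = 4.59e-06), and the fall was smaller in the authors' processed values (-1.45). A further probe of *Peg3* read 5.01, 4.67 and 4.89 in *Prdm14*-deficient cells, where it was never above background, and 6.79, 7.07 and 6.88 in wild-type cells, where it always was. Its signal was at least 2.25-fold lower in *Prdm14*-deficient cells (adjusted p = 8.44e-06). Because this probe passed the detection filter through the wild-type arrays alone, its p is no further support. A fold written as "at least" sets the mean of the brighter genotype against the detection limit on the arrays of the other genotype. That limit is the lowest signal of any detected probe, or the probe's own signal where that is higher. The last probe of *Peg3* was above background on 1 wild-type array only and was not tested: it read 4.56, 4.37 and 4.50 in *Prdm14*-deficient cells and 4.97, 4.97 and 5.78 in wild-type cells, again without overlap. *Usp29* and *Zim1*, which lie beside *Peg3* in the same domain, have no named probe and were not analysed here.

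*Ndn*, which encodes necdin, a MAGE family protein of neurons that restrains cell growth, was the paternally expressed gene with the largest rise. It read 9.52, 9.14 and 8.92 in *Prdm14*-deficient cells and 7.98, 7.79 and 7.83 in wild-type cells. All *Prdm14*-deficient arrays were above all wild-type arrays, and the *Prdm14*-deficient arrays were more spread (9.19 ± 0.30 in *Prdm14*-deficient cells and 7.87 ± 0.10 in wild-type cells, SD, n = 3 each). The difference was 1.33 (SE 0.15, adjusted p = 3.06e-04), or 2.51-fold. *Ndn* lies in the Prader-Willi/Angelman domain of chromosome 7. Its neighbour *Mkrn3*, a paternally expressed ubiquitin ligase gene, read 7.89, 8.10 and 7.60 in *Prdm14*-deficient cells and 7.75, 7.16 and 7.62 in wild-type cells, which overlapped (0.35, adjusted p = 0.183). *Ube3a*, the ubiquitin ligase of Angelman syndrome, maternally expressed in neurons, was read by probes that differed. Its brighter probe overlapped between the genotypes (7.14, 7.16 and 6.78 in *Prdm14*-deficient cells; 6.62, 6.86 and 6.71 in wild-type cells) and was not called (0.29, adjusted p = 0.131). The dimmer *Ube3a* probe read 6.80, 6.60 and 6.42 in *Prdm14*-deficient cells and 4.91, 5.33 and 6.03 in wild-type cells, where it was above background on 1 array, and it passed the threshold (1.18, SE 0.25, adjusted p = 0.00808; 0.40 in the authors' processed values). *Ube3a* was counted by its brighter probe and is therefore not among the called genes. *Snrpn*, *Magel2* and *Peg12* of this domain have no named probe. *Snurf*, which shares a transcript with *Snrpn* and was looked up after the values were seen, had differences of 0.28, 0.32 and 0.13 at its 3 probes, none of them called (adjusted p = 0.0588, 0.0444 and 0.478).

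*Peg10* and *Ppp1r9a* lie in the same domain of chromosome 6 and are expressed from opposite alleles. *Peg10*, a paternally expressed gene derived from a retrotransposon and needed for the placenta, read 7.03, 6.69 and 7.10 in *Prdm14*-deficient cells and 5.68, 5.75 and 5.95 in wild-type cells, where 2 of 3 arrays were above background. *Ppp1r9a*, which encodes the actin-binding protein neurabin and is maternally expressed, read 7.59, 7.76 and 7.92 in *Prdm14*-deficient cells and 6.56, 6.68 and 6.92 in wild-type cells. Neither gene had any overlap between the genotypes, and both were higher in *Prdm14*-deficient cells. *Peg10* averaged 6.94 ± 0.22 in *Prdm14*-deficient cells and 5.79 ± 0.14 in wild-type cells (SD, n = 3 each), a difference of 1.15 (SE 0.13, adjusted p = 3.6e-04). *Ppp1r9a* averaged 7.75 ± 0.17 in *Prdm14*-deficient cells and 6.72 ± 0.19 in wild-type cells, a difference of 1.03 (SE 0.13, adjusted p = 5.52e-04). *Peg10* was called under every setting in which it was tested, but its difference was 0.66 without background correction and 0.45 in the authors' processed values, and that of *Ppp1r9a* was 0.56 in those same values. The bordering *Pon2*, outside the 40 genes, did not pass (0.37, adjusted p = 0.0374), and *Sgce* and *Asb4* have no named probe.

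*Rtl1*, a paternally expressed gene derived from a retrotransposon and required for the vessels of the placenta, read 6.21, 6.15 and 6.58 in *Prdm14*-deficient cells and 5.31, 5.11 and 5.57 in wild-type cells, where it was above background on 1 array. The genotypes did not overlap. The difference was 0.98 (SE 0.15, adjusted p = 0.00183, with means of 6.31 ± 0.23 in *Prdm14*-deficient cells and 5.33 ± 0.23 in wild-type cells, SD, n = 3 each), and its size depended on the processing: it was 0.61 with an offset of 50, 0.48 without background correction and 0.31 in the authors' processed values, all called, and *Rtl1* was not called when all probes were tested without a filter on detection (adjusted p = 0.0144). An antisense transcript is known from the maternal allele at *Rtl1*, and no source used here gives the strand that the probe reads. *Meg3*, the maternally expressed long non-coding RNA of the same Dlk1-Dio3 domain on chromosome 12, had no named probe in the annotation. Its probe was named through a supplementary table of genes listed as changed in this same comparison, so its values are a description without a test: 10.07, 10.21 and 10.33 in *Prdm14*-deficient cells and 9.05, 9.62 and 9.38 in wild-type cells, a difference of 0.85. All *Prdm14*-deficient arrays were above all wild-type arrays. The difference of *Dio3*, the last gene of this domain and outside the 40 genes, was 0.10 (adjusted p = 0.739), and *Dlk1* has no named probe.

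*Gnas* on chromosome 2 encodes the stimulatory G protein alpha subunit, which most tissues express from both copies, and further transcripts that are strictly paternal or maternal. Its brighter probe read 9.46, 9.34 and 9.51 in *Prdm14*-deficient cells and 8.06, 8.44 and 8.19 in wild-type cells, and its dimmer probe, annotated to another transcript, 7.87, 7.53 and 7.51 in *Prdm14*-deficient cells and 6.13, 6.02 and 6.46 in wild-type cells. At both probes every *Prdm14*-deficient array was above every wild-type array. The differences were 1.21 (SE 0.12, adjusted p = 1.52e-04, 2.31-fold) and 1.43 (SE 0.15, adjusted p = 1.75e-04, 2.70-fold). Which of the *Gnas* products, and so which allele, the rise belongs to was not tested. The antisense gene *Gnasas1*, whose signal cannot be told apart from that of *Gnas* without strand, was above background on 2 *Prdm14*-deficient arrays and no wild-type array and was not tested.

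**Figure D2:**
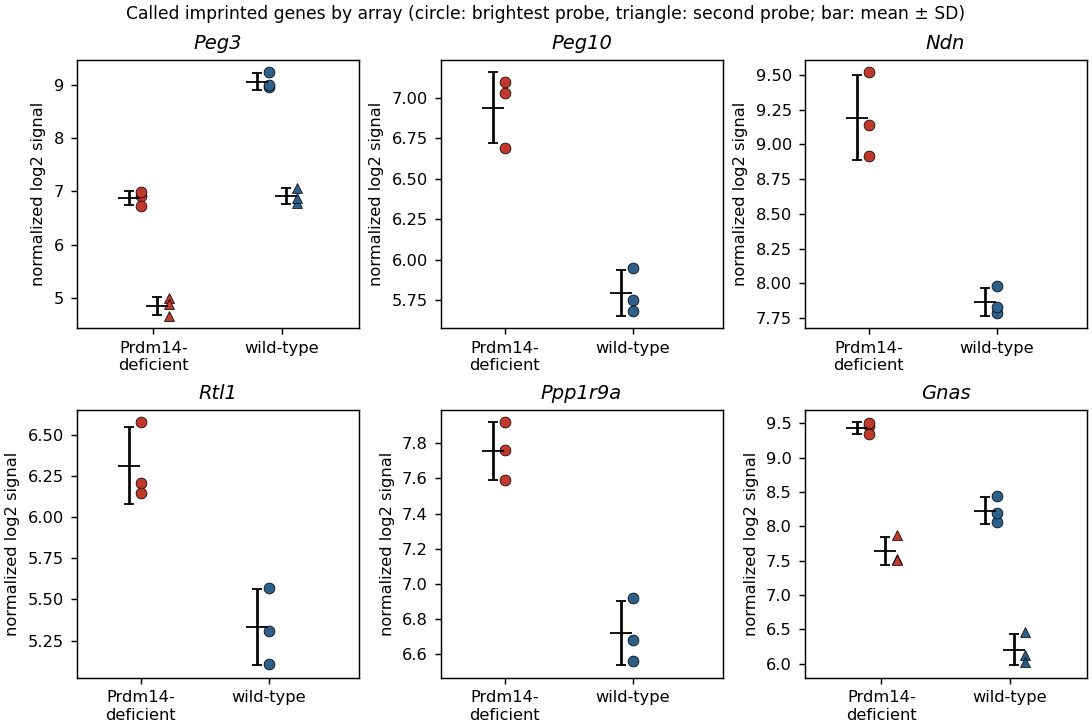
Normalized log2 signal (y axis, a scale of its own in each panel) of the 6 called imprinted genes on each array, *Prdm14*-deficient left and wild-type right, with the mean ± SD beside the points (n = 3 each). Circles are the brightest probe and triangles the further tested probe of *Peg3* and *Gnas*; in every panel the genotypes are separate at each probe, with *Peg3* lower (6.88 in *Prdm14*-deficient cells, 9.06 in wild-type cells) and the other 5 genes higher in *Prdm14*-deficient cells.

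Promoter sequences were available for 4 of the 6 called genes and for 32 of the 40 imprinted genes, from RefSeq on the build GRCm38.p6. Imprint control and allele-specific silencing act through methylation of CpG dinucleotides, and ZFP57, a zinc finger protein that guards imprints, binds the motif TGCCGC, which itself holds a CpG, when it is methylated. The 250 bases before the start of 3 paternally expressed genes are shown because they differ in their number of CpG dinucleotides and because 1 of them holds the motif: *Peg3*, the gene that fell, *Ndn*, the gene that rose most, and *Mest*, a tested gene that was not called. Sequences run 5′ to 3′ towards the start, with CpG dinucleotides in capitals.
*Peg3* (chr7:6730420-6730669, minus strand): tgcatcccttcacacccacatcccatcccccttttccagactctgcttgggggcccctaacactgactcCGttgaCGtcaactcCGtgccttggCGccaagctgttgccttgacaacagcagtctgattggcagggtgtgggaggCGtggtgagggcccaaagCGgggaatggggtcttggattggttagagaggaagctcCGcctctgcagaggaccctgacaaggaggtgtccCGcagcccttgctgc
*Ndn* (chr7:62348027-62348276, plus strand): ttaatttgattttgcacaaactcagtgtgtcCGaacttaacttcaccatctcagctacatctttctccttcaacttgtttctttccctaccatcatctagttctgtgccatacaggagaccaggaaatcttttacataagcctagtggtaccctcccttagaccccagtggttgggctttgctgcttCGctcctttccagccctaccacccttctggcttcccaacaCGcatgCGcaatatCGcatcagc
*Mest* (chr6:30737800-30738049, plus strand): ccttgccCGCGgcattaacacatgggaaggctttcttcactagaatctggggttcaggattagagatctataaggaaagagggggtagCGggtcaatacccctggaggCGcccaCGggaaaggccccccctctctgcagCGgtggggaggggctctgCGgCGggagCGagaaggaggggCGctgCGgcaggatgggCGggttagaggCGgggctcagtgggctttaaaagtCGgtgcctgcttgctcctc

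The window of *Peg3* holds 8 CpG dinucleotides, that of *Ndn* 5 and that of *Mest* 14. *Mest* has 3 entries: the window shown, the same window moved by a few bases, and an upstream start with 7 CpG dinucleotides and 0 motifs. The motif TGCCGC, searched on both strands in this window, was found in that of *Mest* at positions -242 and -67, counted from the start, and in neither of the others. Among called genes it was in 0 of 8 promoters, among the 12 genes with a promoter entry that were tested and not called in 3 of 19 (15.8%), among all 40 genes in 9 of 50 promoters (18%) and in 8.68% of all 32851 promoters of the reference. The median number of CpG dinucleotides was 17.5 in promoters of called genes, 14 in those of tested genes that were not called and 6 in all promoters. These counts are of promoters, not genes. Among called genes *Gnas* enters with several starts (14, 21, 22 and 29 CpG dinucleotides) and *Ppp1r9a* with 8 and 35, beside 8 for *Peg3* and 5 for *Ndn*. The 3 promoters with the motif among genes not called include overlapping windows of *Mest*. The windows lie before gene starts and were not chosen to cover imprint control regions. A window without the motif therefore does not show that a gene or its domain lacks one. A match to the motif is a description, and methylation was not measured on these arrays.

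The remaining 5 paternally expressed genes did not pass the test. *Inpp5f*, an inositol phosphatase gene with a paternally expressed variant in the brain, came closest: it read 6.67, 6.49 and 6.48 in *Prdm14*-deficient cells and 6.08, 6.18 and 5.86 in wild-type cells, which did not overlap (0.51, SE 0.12, adjusted p = 0.0125). It passed when arrays were weighted by their quality (adjusted p = 0.008). *Igf2*, the growth factor that drives fetal and placental growth, read 8.27, 9.06 and 8.88 in *Prdm14*-deficient cells and 8.90, 8.64 and 8.45 in wild-type cells. These values overlapped fully, and the difference was 0.08 (SE 0.20, adjusted p = 0.815). *Mest*, which encodes a hydrolase-like protein of mesoderm, differed by 0.20, 0.33 and 0.26 at its 3 probes (adjusted p = 0.26, 0.263 and 0.187). *Impact*, which encodes an inhibitor of the stress kinase GCN2, differed by 0.09 and 0.42 (adjusted p = 0.509 and 0.168). With *Mkrn3*, all of these differences were positive and none was called. The other 12 paternally expressed genes, *Peg12*, *Magel2*, *Snrpn*, *Plagl1*, *Dlk1*, *Nnat*, *Sgce*, *Zrsr1*, *Nap1l5*, *Usp29*, *Kcnq1ot1* and *Mcts2*, have no named probe and were not analysed here. The annotation used names only probes that were above background on at least 1 array, so the absence of a name does not tell whether such a gene was silent or has no probe.

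Among the 9 maternally expressed genes that did not pass, 5 had arrays that did not overlap between the genotypes, as 45% of all genes did. *Grb10*, an adaptor that restrains insulin and growth factor signalling, read 9.19, 9.59 and 9.73 in *Prdm14*-deficient cells and 9.05, 9.13 and 8.88 in wild-type cells (0.48, SE 0.15, adjusted p = 0.0416). It was called when the first *Prdm14*-deficient sample was left out (0.64, adjusted p = 0.00853), and its other probe was above background on 2 *Prdm14*-deficient arrays only and was not tested (5.91, 5.49 and 5.99 in *Prdm14*-deficient cells, 5.22, 5.69 and 5.45 in wild-type cells). *Igf2r*, the receptor that removes IGF2, read 7.72, 7.54 and 7.77 in *Prdm14*-deficient cells and 8.11, 7.97 and 8.02 in wild-type cells at its brighter probe (-0.36, adjusted p = 0.0323), and differed by -0.11 at the other (adjusted p = 0.515). These arrays of *Igf2r* lay apart without reaching the threshold. *Cdkn1c*, a cyclin-dependent kinase inhibitor that limits growth, read 8.54, 8.63 and 8.87 in *Prdm14*-deficient cells and 8.90, 9.13 and 9.09 in wild-type cells (-0.36, SE 0.12, adjusted p = 0.0553). *Cd81*, a tetraspanin gene imprinted in the placenta, read 13.11, 12.93 and 13.02 in *Prdm14*-deficient cells and 12.79, 12.88 and 12.79 in wild-type cells (0.20, adjusted p = 0.169). The gap between the genotypes was narrow for both genes. *Copg2*, a coat protein gene opposite *Mest*, read 7.46, 7.35 and 7.47 in *Prdm14*-deficient cells and 7.55, 7.79 and 7.55 in wild-type cells (-0.20, adjusted p = 0.2).

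*Phlda2*, which restrains growth of the placenta, had the largest negative difference among the maternally expressed genes, and it rested on which wild-type samples were used. It read 9.08, 9.14 and 9.27 in *Prdm14*-deficient cells and 9.11, 10.19 and 10.04 in wild-type cells, so that 1 wild-type array fell within the *Prdm14*-deficient range (-0.62, SE 0.25, adjusted p = 0.103). Without that wild-type sample it was called lower (-0.95, adjusted p = 9.71e-04). *Ube3a* is given above, and the differences of *Tssc4* were -0.14 and 0.13 (adjusted p = 0.34 and 0.366) and those of *Commd1*, a gene of copper handling that surrounds *Zrsr1*, were 0.03 and -0.39 (adjusted p = 0.892 and 0.0958). At both genes the probes differed in sign. *Ascl2*, a transcription factor gene of the placenta, was above background on wild-type arrays only (2 of 3 for its first probe and 1 of 3 for its second) and was not tested: the first read 5.41, 5.41 and 5.23 in *Prdm14*-deficient cells and 5.07, 5.98 and 5.80 in wild-type cells, and the second 4.88, 5.24 and 5.05 in *Prdm14*-deficient cells and 5.58, 5.51 and 5.75 in wild-type cells. The second of these did not overlap, and all of its values are close to background. *Zim1*, *Asb4*, *Kcnq1*, *Osbpl5* and *Dcn* have no named probe.

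*H19*, the maternally expressed non-coding RNA that shares a control region with *Igf2*, was named through a supplementary table of another experiment, in which *Prdm14* was overexpressed. Its probes read 8.13, 8.79 and 8.76 in *Prdm14*-deficient cells and 9.27, 8.98 and 8.83 in wild-type cells, and 6.49, 7.27 and 7.31 in *Prdm14*-deficient cells and 7.80, 7.57 and 7.47 in wild-type cells. At both probes the *Prdm14*-deficient arrays were the lower ones, by a narrow gap, and the first *Prdm14*-deficient sample was the lowest. The differences were -0.46 (SE 0.19, adjusted p = 0.109) and -0.59 (SE 0.21, adjusted p = 0.0699), neither of them called. At the brighter probe the difference was -0.25 without the first *Prdm14*-deficient sample and -0.30 with array weights. *H19* and *Meg3* are outside the counts of the 20 genes.

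The domains were then laid out in chromosomal order, with measured neighbours outside the 40 genes added. In the Peg10 domain 2 of 3 measured genes were called, both higher (15.1% of all genes were called in either direction), and in the Dlk1-Dio3 domain the differences of *Meg3* and *Rtl1* were 0.85 and 0.98. The probe of *Meg3* was named through a list of genes changed in this comparison, so its rise is no support for a shared direction. All 4 measured genes of the Prader-Willi/Angelman domain had positive differences (median 0.32), of which *Ndn* passed. *Snurf* among them was looked up after the values were seen. Over all 8343 genes tested, 4437 differences were positive and 3906 negative. In the Kcnq1 domain of chromosome 7, steered by the paternally expressed RNA *Kcnq1ot1*, 6 of 8 differences were negative (median -0.25) and 1 gene was called, *Tspan32*, which is outside the 40 genes and was lower in *Prdm14*-deficient cells (-1.41, SE 0.25, adjusted p = 0.0039). For comparison, the median difference of all genes was 0.06 on chromosome 7, 0.03 on chromosome 6, 0.04 on chromosome 12, 0.06 on chromosome 2 and -0.14 on chromosome 11. Neighbouring genes share a control region and are not independent of each other.

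**Figure D3:**
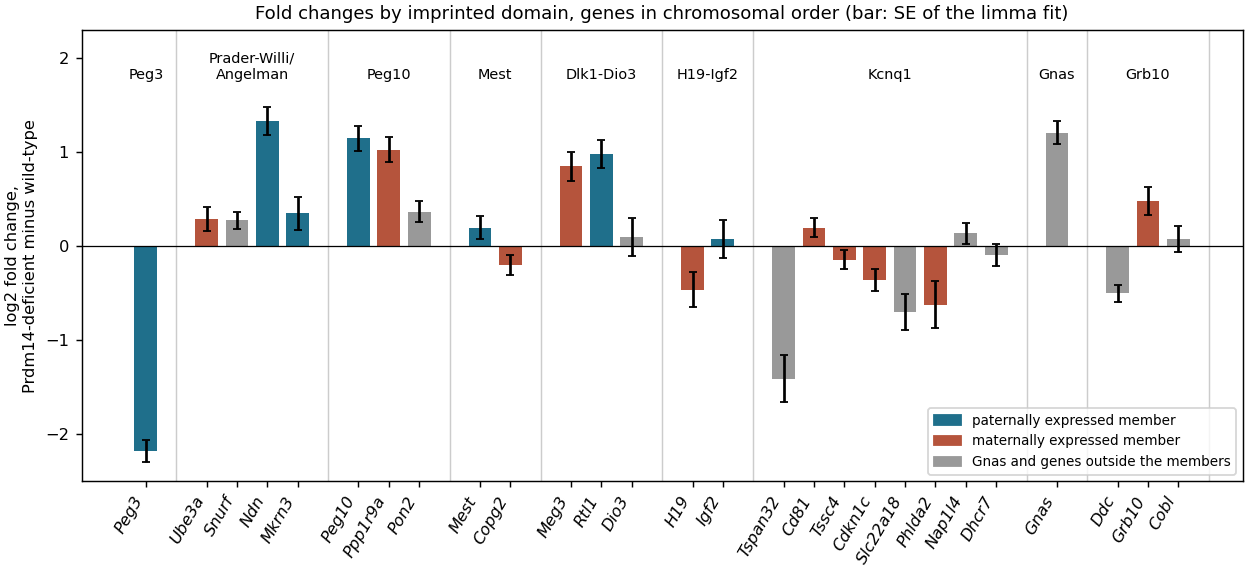
Difference in log2 signal, *Prdm14*-deficient minus wild-type (y axis), of the measured genes of 9 imprinted domains, in chromosomal order within each domain on the x axis, with the SE of the limma fit as the bar and colours for the expressed allele. The Peg10 domain holds positive differences for genes of either allele (*Peg10* 1.15, *Ppp1r9a* 1.03), while 6 of the 8 bars of the Kcnq1 domain lie below 0. In the Dlk1-Dio3 domain *Rtl1* stands at 0.98, and the bar of *Meg3* is a description, as its probe was named through a list of changed genes.

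Genes of proteins that set, protect or remove imprints were compared in the same fit. Of 17 such genes, 14 were measured, and 4 were called (28.6%, against 15.1% of all genes), 3 higher and 1 lower. This list was also chosen with earlier results of these data known. The study itself reports these 4 genes as changed in the same comparison, so the share is a description. *Dnmt3l*, the cofactor of the de novo DNA methyltransferases that is needed to set maternal imprints, read 12.84, 13.09 and 12.92 in *Prdm14*-deficient cells and 11.60, 11.03 and 11.39 in wild-type cells (1.61, SE 0.15, adjusted p = 1.07e-04). *Dnmt3b*, a de novo methyltransferase gene, read 13.08, 13.43 and 13.45 in *Prdm14*-deficient cells and 12.49, 12.29 and 12.33 in wild-type cells (0.95, SE 0.13, adjusted p = 7.5e-04). Neither gene overlapped between the genotypes. *Ehmt2*, which encodes the histone methyltransferase G9a, was higher by 0.58 (adjusted p = 0.00332), and its second probe did not pass (0.39, adjusted p = 0.0172). Leaving out 1 sample cost *Ehmt2* its call in 3 of 6 cases (adjusted p = 0.0175 without *Prdm14*-deficient sample 2, 0.0142 without *Prdm14*-deficient sample 3 and 0.0145 without wild-type sample 2). *Dppa3*, also called *Stella*, which shields imprints from demethylation in the zygote, read 10.34, 10.07 and 10.51 in *Prdm14*-deficient cells and 11.05, 11.41 and 11.53 in wild-type cells (-1.02, SE 0.16, adjusted p = 0.00167), and it was not called without a filter on detection (adjusted p = 0.0139).

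The factors that copy and guard imprints during cell division were not called. *Dnmt1*, the maintenance methyltransferase, differed by -0.02 (adjusted p = 0.924) and *Uhrf1*, which brings it to replicating DNA, by -0.21 (adjusted p = 0.143). The dimmer *Uhrf1* probe differed in sign (0.15, adjusted p = 0.507). *Trim28*, the corepressor that ZFP57 recruits to imprint control regions, differed by 0.25 (adjusted p = 0.0879), and *Zfp445*, a zinc finger protein that also guards imprints, by 0.14. The insulator gene *Ctcf* differed by 0.07, and *Setdb1*, *Smchd1*, *Arid4a* and *Eed* by 0.19, 0.22, 0.12 and 0.05. *Tet1*, which acts in the removal of methylation, differed by -0.12 and was not called either. *Zfp57*, *Dnmt3a* and *Tet2* have no named probe and were not analysed here. How these levels relate to the imprinted genes was not tested.

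Of the 6 called genes, *Peg3*, *Ndn*, *Ppp1r9a* and *Gnas* were called under all 19 alternative settings, *Peg10* under the 18 in which it was tested and *Rtl1* under 17 of 18. No sign changed. The fold change of *Peg3* ranged between -2.26 and -1.45, that of *Ndn* between 1.01 and 1.46, that of *Gnas* between 0.96 and 1.32, that of *Peg10* between 0.45 and 1.27, that of *Ppp1r9a* between 0.56 and 1.14 and that of *Rtl1* between 0.31 and 1.1.

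**Figure D4:**
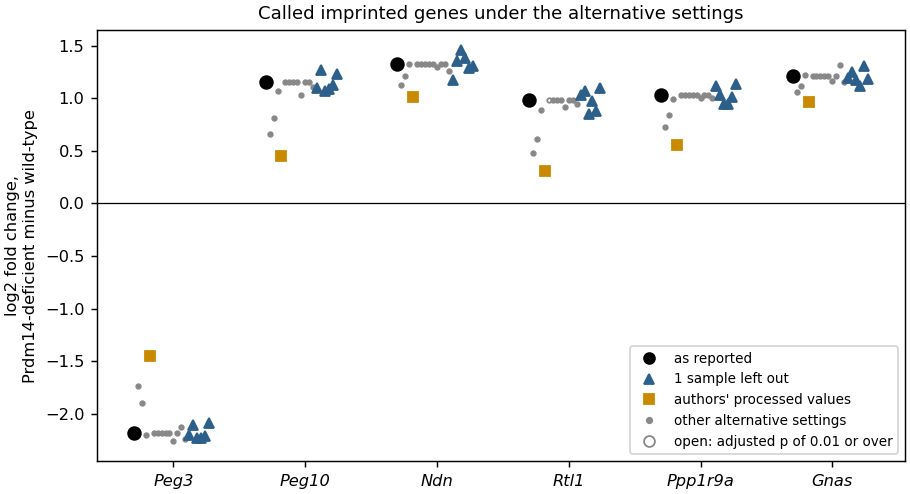
Difference in log2 signal, *Prdm14*-deficient minus wild-type (y axis), of the 6 called imprinted genes (x axis) as reported (black), with each sample left out (blue triangles), in the authors' processed values (orange squares) and under the other settings (grey; open where the adjusted p was 0.01 or over). All points of *Peg3* lie below 0 and all points of the other 5 genes above it, and the processed values give the smallest difference for each gene (-1.45 for *Peg3*, 0.31 for *Rtl1*).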

How the data were processed

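RNA of 3 *Prdm14*-deficient and 3 wild-type ES cell samples was read on 6 Illumina arrays, grouped by the sample labels. The deposited signal intensities of 45281 probes are not normalized, and each has a deposited detection p-value. The authors' processed values, on a scale close to log2 and deposited for the 15961 probes above background on at least 1 array, were used as an alternative. The submitters' processing notes name lumi, and no version or setting of it is stated in the sources used here.

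Intensities were corrected with the normal-exponential model of limma 3.58.1 (R 4.3.3), which infers negative controls from the detection p-values. After adding an offset of 16, log2 values were quantile-normalized. The 14436 probes detected on 3 or more of the 6 arrays (p under 0.01) were fitted with lmFit and eBayes, the genotype being the only term, with Benjamini-Hochberg adjustment across all tested probes. The threshold of 0.01 is that of the study's methods. A gene with several tested probes was counted by the brightest, and fold changes are on the log2 scale of signal plus offset, which understates changes of dim probes. The number of arrays and the signal over background limit the precision. Median intensities were 74.8, 64.4 and 63.5 on the *Prdm14*-deficient arrays and 56.8, 75.8 and 80.6 on the wild-type arrays, and 13456 to 14901 probes per array were detected. Log2 signals correlated at 0.990 to 0.994 within a genotype and at 0.958 to 0.962 between them.

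Symbols came from the platform annotation, updated through RefSeq gene identifiers (13829 probes). Of the tested probes, 12582 had 1 symbol and 1854 several or none. *Meg3* (1 probe) and *H19* (2 probes) were named through supplementary tables. The imprinted genes and all lists were chosen with earlier results of these data known. Of the imprinted genes, values in every sample are given for those that passed, did not overlap between the genotypes or had a probe detected in 1 genotype only. The others, and most genes of the further lists, are given by their differences. Alternatives covered background, offset, normalization, probe filter, variance model, weights for arrays, the replicate number as a block, the threshold, averaging of probes and leaving out each sample. No source used here says which arrays lay on 1 BeadChip, so this could not be a block.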

Additional observations from a re-analysis of the deposited data

How the results depend on the processing

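The count of imprinted genes called stayed between 4 and 9 under all alternatives. With probes detected on all 6 arrays only, 4 of 18 were called, against 13.5% of all genes tested. In that setting 1 paternally expressed gene was called higher, since *Peg10* and *Rtl1* were not tested. Without a filter on detection 5 of 21 were called, against 9.52% of all genes, and with array weights 7 of 20, against 18.8%. At an adjusted p under 0.05, 9 of 20 were called (*Grb10*, *Igf2r* and *Inpp5f* in addition), against 27.4% of all genes. Among maternally expressed genes, 2 were then higher and 1 lower. Over the array 3669 probes passed (1851 higher and 1818 lower), against 1986 at 0.01 (894 higher and 1092 lower). With 1 sample left out, 6 to 7 imprinted genes were called, against 9.11% to 12.5% of all genes. Each time 3 were paternally expressed and higher, and 1 was paternally expressed and lower. Maternally expressed genes called higher numbered 1 to 2 (*Grb10* without the first *Prdm14*-deficient sample). Those called lower numbered 0 to 1 (*Phlda2* without the first wild-type sample). Over the array 1188 to 1636 probes were called, 475 to 699 of them higher and 713 to 937 lower.

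The replicate numbers do not pair the samples: samples of the same number deviated from their genotype means with correlations of -0.0269, -0.0638 and -0.125, and samples of different numbers with -0.0718 to 0.132. With the replicate block 6 imprinted genes were called, against 12.1% of all genes, and 1588 probes.

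Uncalled differences near 0 changed sign: *Dnmt1* with median scaling (0.01), *Commd1* with the mean of its probes (-0.18) and *Eed* with the chromosome median removed (-0.01), an alternative chosen after the data had been seen. With 1 sample left out, the differences ranged between -0.12 and 0.06 for *Dnmt1*, -0.09 and 0.31 for *Igf2*, -0.04 and 0.14 for *Commd1*, -0.03 and 0.19 for *Ctcf*, 0 and 0.12 for *Eed*, 0 and 0.26 for *Arid4a*, and -0.05 and 0.35 for *Zfp445*. The cause was not tested. Of 378 values of the 20 tested imprinted genes under alternatives, 368 kept their direction and their side of the threshold.

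Probes near background limit what can be said of *Rtl1*, *Peg10*, *Ascl2* and the dimmer probes of *Peg3*, *Ube3a* and *Grb10*.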

Other observations

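A further list of 39 imprinted genes outside those above, also chosen with earlier results known, was read in the same fit. Of these, 14 were measured. In limma 0 were called higher and 3 were called lower in *Prdm14*-deficient cells (21.4%), against 6.69% of all genes called higher, 8.4% called lower and 15.1% in either direction. At an unadjusted p under 0.05 in limma, 1 was higher and 6 were lower, against 1717 and 1604 of all 8343 genes. The median difference was -0.21, with 5 positive and 9 negative, against 0.02 over all genes. *Ampd3*, an AMP deaminase gene imprinted in the placenta, read 4.76, 4.98 and 4.56 in *Prdm14*-deficient cells, where it was never above background, and 6.20, 6.50 and 6.61 in wild-type cells, where it always was (at least 1.62-fold lower, adjusted p = 6.99e-05). It passed the detection filter through the wild-type arrays alone, so its call is no further support for the count. *Tspan32*, a tetraspanin gene of the Kcnq1 domain, read 5.93, 6.82 and 6.24 in *Prdm14*-deficient cells and 7.56, 7.46 and 8.22 in wild-type cells. *Ddc*, the decarboxylase gene of dopamine and serotonin synthesis that neighbours *Grb10*, read 9.24, 9.25 and 9.20 in *Prdm14*-deficient cells and 9.74, 9.74 and 9.71 in wild-type cells (-0.50, SE 0.09, adjusted p = 0.0035), and its other probe was not called (-0.26, adjusted p = 0.152). None of these 3 genes overlapped between the genotypes at the probe called.

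*Slc38a4*, a paternally expressed amino acid transporter gene, did not pass although its arrays did not overlap (5.54, 5.89 and 5.64 in *Prdm14*-deficient cells, 6.20, 7.41 and 6.72 in wild-type cells, -1.09, adjusted p = 0.0152). *Slc22a18*, a maternally expressed neighbour of *Cdkn1c*, differed by -0.70 (adjusted p = 0.0235). *Rian*, a maternally expressed non-coding RNA next to *Rtl1*, was above background on 1 *Prdm14*-deficient array and was not tested.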
